A study of Homo sapiens with 4 samples.

Results

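The 36 genes described here are core genes of mitosis, measured by RNA-seq in untreated HaCaT cells, an immortalised line of human skin keratinocytes. They were chosen by name, as a fixed list of cyclins, kinases, motors, kinetochore and checkpoint proteins and ubiquitin ligase factors, and each was found once among the 44591 genes of the files, 19233 of them protein-coding. The 4 samples are replicates of a single condition, so there was no control or comparison group. Total RNA was taken from cells grown in medium with 12% serum according to the labels (the methods of the study give another percentage), and the study calls the samples biological repeats. The labels do not say whether the replicates came from separate cultures, so the spread between them may in part be technical.

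Genes of mitosis are transcribed in waves. Their RNA is low in G1 phase, climbs through S and G2 phases and peaks around cell division, under the DREAM complex in resting cells and the MYB-MuvB complex with FOXM1 in dividing ones. Their products condense the chromosomes, build the spindle, attach chromosomes to it, hold division back until every chromosome is attached, and then destroy cyclin B and securin so that the sister chromatids part. In bulk RNA, fewer dividing cells and less RNA per dividing cell cannot be told apart.

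The level of a gene is given in TPM, its deposited count per kilobase of gene length scaled so that the protein-coding genes of a replicate add up to 1000000. Total counts were 73082279, 17056035, 19745170 and 19083836 in replicates 1 to 4, and the 36 genes held 445891, 81671, 88786 and 137246 of them. The lowest count of any of the 36 genes was 192, for CDC25C in replicate 2. The keratinocyte identity of the samples was checked with 10 markers, of which KRT14 was the highest at a mean of 6847 TPM and TP63 the lowest at 71.2 TPM. Markers of other cells were far below these. Summed levels were 5.20 to 9.60 TPM for 6 fibroblast genes (COL1A1 highest at a mean of 3.96 TPM, PDGFRA lowest at 0.0300 TPM) and 3.74 to 9.12 TPM for 5 melanocyte genes (MITF highest at 4.91 TPM, with TYR at 0 in every replicate). Likewise, 4 endothelial genes summed to 0.859 to 2.36 TPM (CDH5 highest at 0.778 TPM, with PECAM1 and KDR at 0). Of immune cell genes, CD14 was at a mean of 6.25 TPM and PTPRC at 0 in replicates 2 to 4.

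Replicate 1 stood apart in its make-up. Protein-coding genes held 31.0% of its TPM over all rows, against 88.6%, 87.4% and 93.0% in replicates 2, 3 and 4, and the RNA of the signal recognition particle alone held 40.7% in replicate 1. TPM over protein-coding genes sets this share aside. The differentiation genes, which skin cells switch on when they stop dividing, had their highest median there, over 7 genes 96.3, 14.3, 3.59 and 7.77 TPM in replicates 1 to 4. In that order FLG was instead highest in replicate 2, at 6.36, 14.3, 3.25 and 7.77 TPM. LOR was near the floor, with 7, 0, 0 and 3 counts, so its order over replicates says little. In that list KRT10 had the highest mean, 90.1 TPM, and LOR the lowest, 0.141 TPM. The part of these differences in the levels described below was not tested.

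The promoters of genes of mitosis are known for 2 short elements: the CHR, with the core TTTGAA, through which the DREAM and MYB-MuvB complexes act, and the CCAAT box, which binds NF-Y. RefSeq promoter windows (GRCh38.p14, 250 bases before to 50 bases after the transcript start) were matched by gene for 30 of the 36 genes, in 36 windows. The 120 bases before the start are printed for 7 genes that show the arrangement or depart from it, in lower case. Capitals mark the CHR core and the CCAAT box on either strand, the box reading ATTGG when it is reversed. The windows lie at chr15:59105026-59105145 (CCNB2, plus strand), chr16:23678769-23678888 (PLK1, plus), chr15:90994536-90994655 (PRC1, minus), chr1:43358861-43358980 (CDC20, plus), chr10:128126424-128126543 (MKI67, minus), chr12:53268179-53268298 (ESPL1, plus) and chr5:69167030-69167149 (CCNB1, plus), and each sequence runs 5′ to 3′ towards the start.
CCNB2: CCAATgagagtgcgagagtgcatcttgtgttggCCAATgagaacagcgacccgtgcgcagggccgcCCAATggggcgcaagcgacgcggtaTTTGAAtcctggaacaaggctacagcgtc
PLK1: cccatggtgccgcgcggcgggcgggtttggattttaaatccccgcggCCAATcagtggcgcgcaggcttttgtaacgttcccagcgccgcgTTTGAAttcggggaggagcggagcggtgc
PRC1: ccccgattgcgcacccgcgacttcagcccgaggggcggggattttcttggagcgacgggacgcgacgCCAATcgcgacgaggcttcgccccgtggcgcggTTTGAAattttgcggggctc
CDC20: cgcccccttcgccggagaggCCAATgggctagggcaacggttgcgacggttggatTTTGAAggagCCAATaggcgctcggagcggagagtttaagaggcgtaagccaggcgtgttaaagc
MKI67: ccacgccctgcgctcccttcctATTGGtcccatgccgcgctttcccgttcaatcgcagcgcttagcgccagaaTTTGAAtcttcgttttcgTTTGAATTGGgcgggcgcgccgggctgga
ESPL1: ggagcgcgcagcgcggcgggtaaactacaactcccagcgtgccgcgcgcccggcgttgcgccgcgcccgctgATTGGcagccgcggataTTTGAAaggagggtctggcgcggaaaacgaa
CCNB1: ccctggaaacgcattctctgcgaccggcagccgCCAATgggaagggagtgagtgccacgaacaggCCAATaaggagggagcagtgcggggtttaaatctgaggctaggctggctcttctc

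In CCNB2, PLK1, PRC1 and ESPL1 a CCAAT box stood upstream of the CHR core, and the core began 29, 29, 20 and 31 bases before the start. CDC20 carried its core between a pair of CCAAT boxes, and MKI67 carried 2 cores, one of which shares a base with a reversed CCAAT box. CCNB1 held CCAAT boxes but no TTTGAA in its window, which says only that these letters are not there. Over the 30 genes, TTTGAA on either strand was in a window of 22 genes (73.3%), against 13.6% of 9997 protein-coding genes with a mean TPM of 1 or more and 18.2% of all 27305 genes with a window. CCAAT on either strand was in 25 genes (83.3%), against 43.4% and 39.7%, and both motifs were in 19 genes (63.3%), against 5.76% and 7.26%. Within the last 100 bases before the start, TTTGAA was found in 14 genes (46.7%, against 3.90% of the protein-coding genes). The less common core TTCGAA was in 2 genes (6.67%), NDC80 and BUB1, against 2.29% of the protein-coding genes and 1.82% of all genes with a window. Within the last 100 bases before the start it was in 0 of the 30 genes, and NDC80 also held TTTGAA. In a list of 59 other mitosis genes, of which 51 had a window, 30 (58.8%) held TTTGAA. Among 32 genes of G1/S transition and DNA replication, 2 (6.25%) held it, although 19 (59.4%) held CCAAT.

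**Figure D1:**
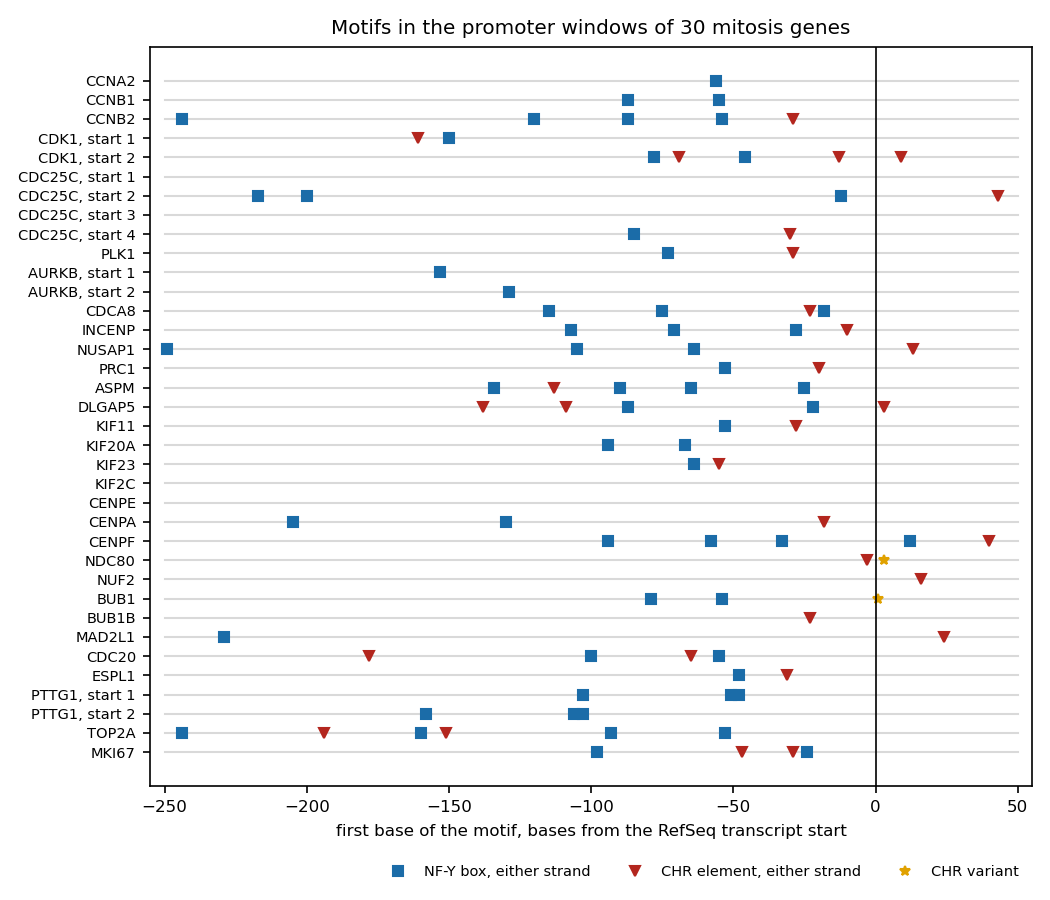
Position of the CHR core (TTTGAA), its variant (TTCGAA) and the NF-Y box (CCAAT) in the 36 RefSeq promoter windows of 30 mitosis genes, in bases from the transcript start (vertical line), on either strand. In genes such as PLK1, PRC1, CCNB2 and ESPL1 the CHR core lies 20 to 31 bases before the start with an NF-Y box upstream of it. CCNA2, CCNB1, KIF20A, PTTG1 and AURKB show NF-Y boxes only, and KIF2C and CENPE show none of the motifs.

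All 36 genes were expressed in every replicate. Their mean levels ran from 17.0 TPM for CENPE to 425 TPM for CDC20, with a median of 100.3 TPM, against a median of 24.5 TPM over the 12165 protein-coding genes with a mean of 1 TPM or more. In rank among the 19233 protein-coding genes the median of the 36 was at percentile 91.0, the lowest at 61.6 and the highest at 98.4. A level of 10 TPM or more in every replicate was reached by 34 of the 36 genes, against 35.6% of protein-coding genes, and the other two, ASPM and CENPE, were under it only in replicate 3. The median rank of the 36 genes was at percentile 93.1, 85.7, 89.2 and 91.1 in replicates 1 to 4.

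The summed level of the 36 genes was 5298, 3723, 3843 and 5283 TPM in replicates 1 to 4, or 4537 ± 872 TPM (SD, n = 4). As a share of protein-coding RNA this was 0.530%, 0.372%, 0.384% and 0.528%. The highest replicate was 1.42 times the lowest, a smaller span than that of any single member, of which AURKA had the smallest at 1.45-fold. Between their highest and lowest replicate 19 of the 36 genes differed over 2-fold, against 64.2% of the 12165 genes. The median coefficient of variation over replicates was 36.2% for the 36 genes and 37.8% for the 12165. Since the replicates varied this much, the order of neighbours among the 36 means is loose. None of the 35 neighbouring pairs in that order differed by more than 1 SD of their difference, and none stood in the same order in 4 of 4 replicates. Neighbours are the closest pairs by construction, so this says nothing about genes further apart in the order.

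**Figure D2:**
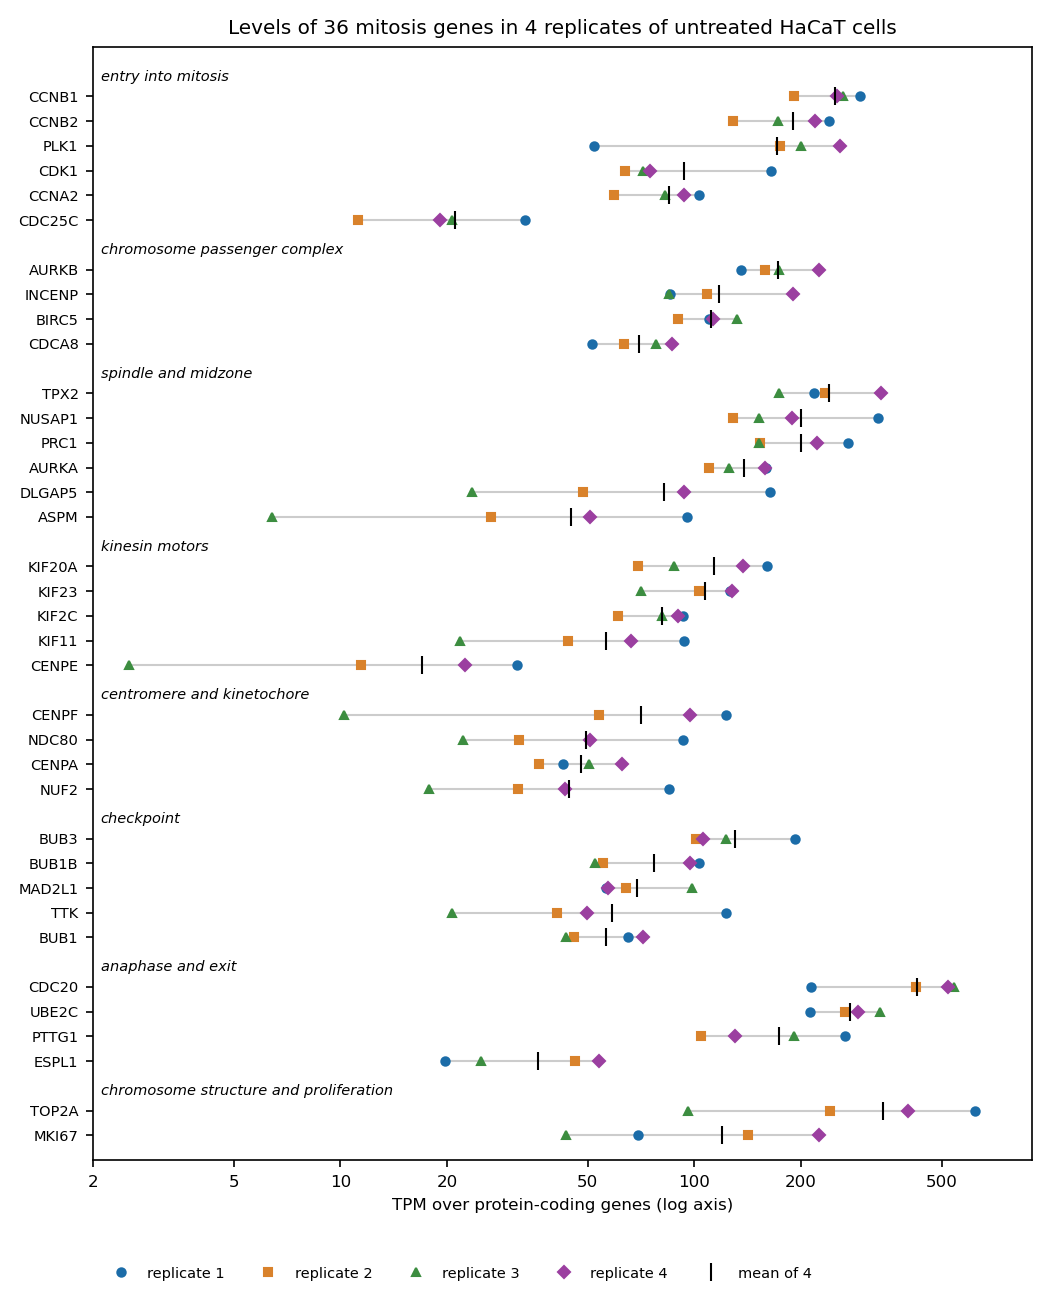
TPM over protein-coding genes (log axis) of each of the 36 mitosis genes in the 4 replicates, grouped by role, with the mean of 4 as a black bar and a grey line from the lowest to the highest replicate. BIRC5, AURKA and KIF2C have their 4 values close together, while ASPM, CENPE and CENPF run over 10-fold, with replicate 3 far below the others.

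Entry into mitosis is driven by the kinase CDK1 with cyclins A and B, is opened by the phosphatase CDC25C and is carried on by the kinase PLK1. Cyclin B1, CCNB1 (chr5:68462837-68474072 in hg19, the build that the submitters' processing notes name), was at 294, 191, 263 and 253 TPM in replicates 1 to 4. Its close relative CCNB2 was at 239.8, 129, 172 and 219 TPM, and cyclin A2, CCNA2, was lower at 103, 59.4, 82.5 and 93.7 TPM. In all 3 cyclins replicate 2 was the lowest and replicate 1 the highest. The partner kinase CDK1 was at 165, 63.6, 71.6 and 74.8 TPM, so that replicate 1 lay far above the other three, which were close together. PLK1 showed the opposite, with 52.1 TPM in replicate 1 and 175, 200.2 and 258 TPM in replicates 2 to 4. The ratio of PLK1 to CDK1, chosen after its values were seen, was 0.316 in replicate 1 and 2.75, 2.80 and 3.45 in the others. CDC25C was the lowest of this group at 33.3, 11.2, 20.7 and 19.1 TPM, and its 192 to 2080 counts lie beside FAM53C on the opposite strand, which overlaps it and had more counts in every replicate. Counting by strand is not given in the sources used here, so reads of overlapping genes on opposite strands cannot be told apart. CCNA2 overlaps EXOSC9 in the same way, with counts of 16.3% to 34.0% of its own.

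The chromosomal passenger complex, which corrects faulty attachments and later guides cell cleavage, consists of the kinase AURKB, the scaffold INCENP, survivin (BIRC5) and borealin (CDCA8). BIRC5 was at 110.2, 89.9, 132 and 113 TPM, with the smallest coefficient of variation of the 36 genes, 15.5%. AURKB was at 135, 158, 173 and 225 TPM, and CDCA8 at 51.3, 63.4, 77.8 and 86.2 TPM. Both had replicate 1 lowest and replicate 4 highest. INCENP was at 85.3, 109, 85.1 and 189.9 TPM, where replicate 4 stood above the other three. The 4 subunits therefore did not keep one proportion: INCENP was the highest but one in replicate 4 and the lowest but one in replicate 1.

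Among the proteins that build the spindle and its midzone, the microtubule factor TPX2, which activates Aurora A, was at 218, 234, 173 and 337 TPM. AURKA itself was at 159.8, 110.3, 125 and 158 TPM. The bundling protein PRC1, the organiser of the spindle midzone, was at 271, 154, 153 and 222 TPM and NUSAP1, another microtubule binder, at 331, 129, 152 and 189 TPM. These 4 genes stayed within 2.57-fold between replicates. DLGAP5, a spindle assembly factor, was at 163, 48.5, 23.5 and 93.6 TPM, and ASPM, which works at the spindle poles, at 95.2, 26.7, 6.41 and 50.6 TPM. ASPM had the largest spread of the 36 genes, 14.9-fold between replicates 1 and 3, with a coefficient of variation of 85.4%.

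The kinesins move along microtubules. KIF11, which pushes the spindle poles apart, was at 93.4, 43.9, 21.8 and 66.4 TPM. KIF20A and KIF23, both needed for cell cleavage, were at 160.2, 69.3, 87.7 and 137 TPM and at 126, 103, 70.6 and 127 TPM. KIF2C, which takes microtubule ends apart, was the steadiest at 93.2, 61.0, 80.9 and 90.01 TPM. CENPE, the motor that brings stray chromosomes to the spindle equator, was the lowest of all 36 genes at 31.5, 11.4, 2.53 and 22.4 TPM. Its replicate 3 value rests on 196 counts. KIF20A overlaps CDC23 on the opposite strand, whose counts were 24.0% to 45.2% of its own.

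At the centromere and kinetochore, the centromeric histone CENPA was at 42.6, 36.5, 50.4 and 62.3 TPM. NDC80 and NUF2, which pair up to grip microtubules, were at 92.6, 31.9, 22.2 and 50.7 TPM and at 84.6, 31.8, 17.8 and 43.1 TPM. The pair kept the same order over replicates, with replicate 1 highest and replicate 3 lowest. CENPF, a large kinetochore protein, was at 123, 53.6, 10.3 and 97.0 TPM, so replicate 3 was 12.0-fold below replicate 1. CENPA, made from a short transcript, had instead replicate 2 lowest.

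The spindle checkpoint genes were between 20.7 and 192 TPM. BUB3 was at 192, 101, 123 and 106 TPM, and MAD2L1, the inhibitor of CDC20, at 56.3, 63.9, 98.7 and 57.0 TPM. MAD2L1 was one of 4 genes with their highest value in replicate 3. The kinase BUB1 was at 64.9, 45.7, 43.5 and 71.6 TPM, and the kinase TTK, which starts checkpoint signalling, at 123, 41.0, 20.7 and 49.8 TPM. BUB1B was listed at 103, 55.1, 52.3 and 97.5 TPM, but its level is uncertain. A readthrough gene on the same strand, BUB1B-PAK6, had 9 counts in replicate 1 and 2575, 2335 and 2428 counts in replicates 2 to 4, against 9373, 1372, 1760 and 2717 counts for BUB1B, so reads of BUB1B may have been divided between the pair of entries in all replicates but the first.

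The genes of anaphase and mitotic exit held the highest member. CDC20, which directs the anaphase-promoting complex to cyclin B and securin, was at 214, 424, 541 and 522 TPM. UBE2C, the ubiquitin-conjugating enzyme of that complex, was at 213, 266, 334 and 291 TPM. Both had replicate 1 lowest and replicate 3 highest. Securin, PTTG1, was at 267, 105, 191 and 130.4 TPM and was highest in replicate 1. Separase, ESPL1, the protease that securin holds back, was lower at 19.8, 46.0, 24.9 and 53.7 TPM. PTTG1 was above ESPL1 in 4 of 4 replicates. Of 8 members with listed pseudogene copies, CDC20 and UBE2C among them, none had a copy with more than 2.16% of its own count.

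TOP2A, which untangles sister DNA, and MKI67, the proliferation marker that coats mitotic chromosomes, are long transcripts with a wide spread. TOP2A was at 621, 241, 96.2 and 403 TPM, the highest of the 36 genes in replicate 1. MKI67 was at 69.2, 142, 43.4 and 225 TPM. As ratios, chosen after their values were seen, TOP2A to CDC20 was 2.91, 0.569, 0.178 and 0.772, and MKI67 to CDC20 was 0.324, 0.335, 0.0803 and 0.431. Which gene had the highest TPM thus differed: TOP2A led in replicate 1, and CDC20 led in replicates 2, 3 and 4. By counts, which are not divided by length, TOP2A led in replicate 1, MKI67 in replicates 2 and 4, and CDC20 in replicate 3.

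The order of the 36 levels was most alike in replicates 2 and 4. Across the 36 genes, which are not independent replicates, Spearman's rho of TPM was 0.963 between replicates 2 and 4, 0.887 between 2 and 3, and 0.820 between 3 and 4. With replicate 1 it was 0.651, 0.602 and 0.653 for replicates 2, 3 and 4. Replicate 1 was also the deepest library, and the other three had similar total counts.

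Within each gene the replicates took different places. The highest of the 4 values was in replicate 1 for 22 genes (40.2% of the 12165 genes had their highest value there), in replicate 2 for 0 genes (23.3%), in replicate 3 for 4 genes (13.3%) and in replicate 4 for 10 genes (23.3%). The lowest value was in replicate 1 for 7 genes (37.5% of the 12165), in replicate 2 for 13 genes (9.47%), in replicate 3 for 16 genes (40.2%) and in replicate 4 for 0 genes (12.9%). Of the 36 genes, 35 were lower in replicate 2 than in replicate 4, against 50.6% of the 12165, and MAD2L1 was the exception. Of the same 36 genes, 28 were lower in replicate 3 than in replicate 4, against 68.4%. These places depend on the scale. With other library scalings (TMM, DESeq2 or upper quartile) 16 genes were lowest in replicate 2 and 12 in replicate 3. With TPM over all rows, 0 genes were highest in replicate 1 and 30 in replicate 4, 26 were lowest in replicate 1, 1 in replicate 2 and 9 in replicate 3, and the summed level of the 36 genes was 1640 TPM in replicate 1 against 3300 to 4912 TPM in the others.

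The members were therefore also set against the other genes of the same replicate, a comparison in which a scaling factor of the library cancels only in part. The deviation of each gene was taken as its log2(TPM + 1) in a replicate minus its mean over the 4 replicates. For the 36 genes its median was 0.34, −0.26, −0.29 and 0.31 in replicates 1 to 4, and that of the 12165 genes was 0.03, 0.09, −0.17 and 0.10. The difference between these medians was 0.32, −0.35, −0.12 and 0.21. With TPM over all rows it was 0.18, −0.31, −0.07 and 0.25, so its size in replicate 1 still depended on the scale.

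The 59 other mitosis genes, such as the CDK partner CKS2 (highest, mean 400 TPM) and the kinetochore subunit NSL1 (lowest, 5.44 TPM), had median deviations of 0.21, −0.08, −0.13 and 0.28. The anaphase-promoting complex and its partners, 16 genes from ANAPC10 at a mean of 6.97 TPM to UBE2S at 299 TPM, stood at 0.44, −0.17, −0.20 and 0.08. G1/S and replication genes, 35 genes from CCNE1 at 7.84 TPM to PCNA at 637 TPM, ran otherwise, at −0.36, 0.04, 0.37 and 0.01. Of 7 CDK inhibitors, which hold the cycle back, the median deviation was 0.41, −0.43, −0.25 and 0.43, with CDKN1A the highest at a mean of 107 TPM and CDKN1C the lowest at 1.84 TPM. These deviations were compared by their medians only, with no test.

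**Figure D3:**
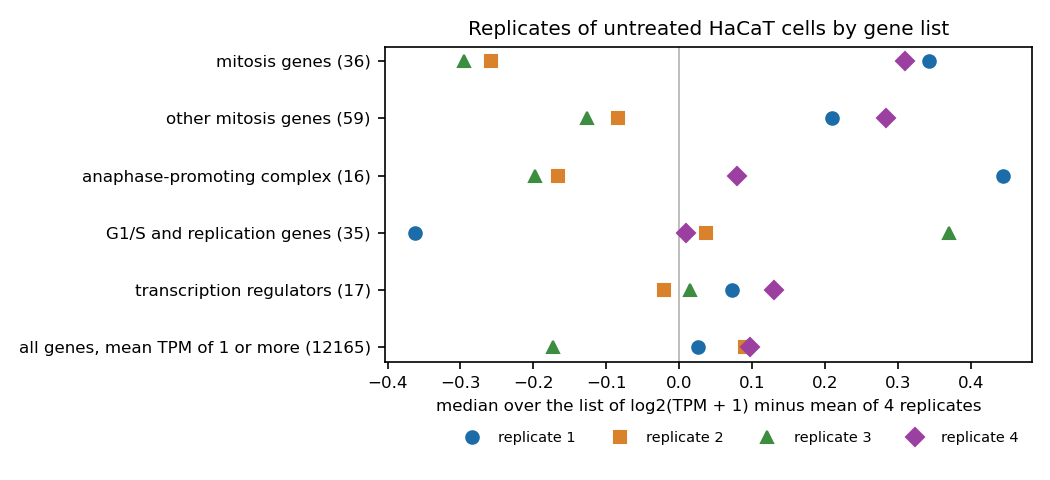
Median over each gene list of the deviation, log2(TPM + 1) minus the mean of 4 replicates, with 1 marker for each replicate and the number of genes in brackets. The 36 mitosis genes lie at 0.34 and 0.31 in replicates 1 and 4 and at −0.26 and −0.29 in replicates 2 and 3, whereas the G1/S and replication genes are lowest in replicate 1 and highest in replicate 3.

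The median log2(TPM + 1) of the 36 genes was above that of the 35 replication genes by 1.31, 0.04, 0.12 and 0.69 in replicates 1 to 4. The mean difference was 0.54 ± 0.59 (SD, n = 4), higher in 4 of 4 replicates, with p = 0.13 in a two-sided exact sign-flip permutation test, the smallest p that 4 replicates allow. Without replicate 1 the mean difference was 0.29.

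Gene length and base composition moved with these deviations. The 36 transcripts were 1160 to 12497 bases long, with a median of 2944 against 3276 bases for the 12165 genes. The longest protein-coding transcript of each member held 35.3% to 59.6% G and C, with a median of 43.8% against 49.1%. In replicate 3 the deviation was lower in longer members: Spearman's rho across the 36 genes was −0.76, against −0.42 across the 12165. Of the 7 members over 5000 bases, 6 had their lowest value in replicate 3 (ASPM, CENPF, MKI67, CENPE, TOP2A and KIF11), against 64.7% of all such genes, and ESPL1 did not. The summed level of these 7 genes was 1053, 565, 206 and 917 TPM, and that of the 29 shorter members was 4245, 3158, 3637 and 4365 TPM. Among the shorter members, 10 of 29 were lowest in replicate 3, close to the 32.1% of all such genes. Their median deviation there was −0.10, against −0.07 for the 9155 genes of 5000 bases or less.

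In replicate 1 the deviation went with GC content, with a rho of −0.82 across the 36 genes and −0.51 across 11888 genes with a value. The members richest in G and C, INCENP, CDC20, PLK1, ESPL1 and AURKB, at 55.6% to 59.6%, all lay below their mean there, from −0.33 for AURKB to −1.48 for PLK1. The poorest, CENPE, CDK1, ASPM, KIF11 and DLGAP5, at 35.3% to 38.4%, all lay above it, by 0.90 to 1.60. When log2 values were centred within 20 bins of length and then of GC content, a choice made after seeing the data, the median of the 36 genes against all genes was 0.22, −0.25, −0.17 and 0.30 in replicates 1 to 4. The signs were those found without centring, and the size was smaller in replicates 1 and 2 and larger in replicates 3 and 4.

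**Figure D4:**
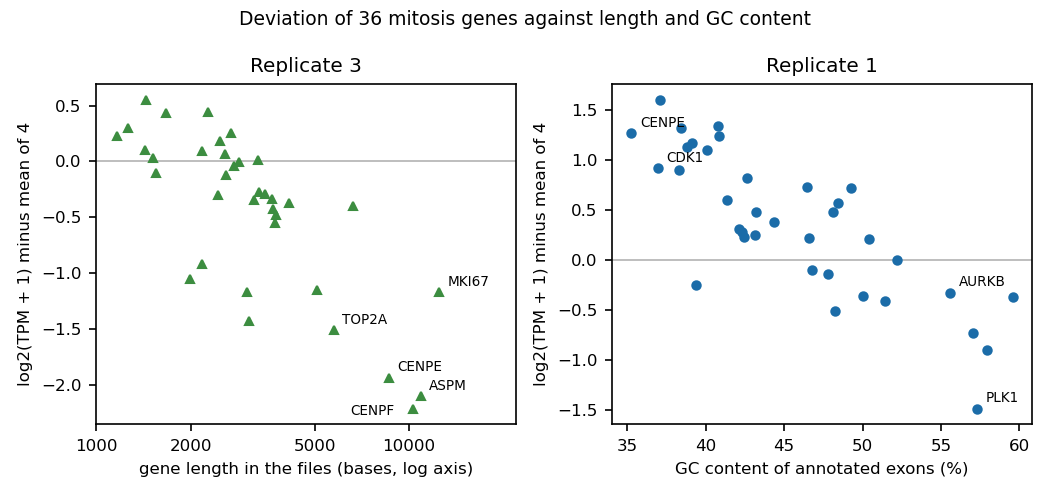
Deviation of each of the 36 genes, log2(TPM + 1) minus the mean of 4, in replicate 3 against gene length in bases (left, log axis) and in replicate 1 against GC content in percent (right), 1 point a gene. Long genes such as CENPF and ASPM lie more than 2 log2 units below their mean in replicate 3, and points fall from the GC-poor CENPE and CDK1 to the GC-rich PLK1 in replicate 1.

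Pairs of genes whose products work together or are close relatives were compared within replicates, in 5 pairs. Ratios are of counts per kilobase, and their 95% Clopper-Pearson intervals describe counting error alone, because the reads carry no molecular identifiers and may be copies of one molecule. In replicate 1 the level of AURKA was 1.18 times that of AURKB (interval 1.14 to 1.22). Replicates 2, 3 and 4 gave 0.697, 0.724 and 0.704, and their intervals together spanned 0.652 to 0.765, so they overlapped each other and not that of replicate 1. The mean difference of log2(TPM + 1) was −0.31 ± 0.37 (SD, n = 4), p = 0.25 in the exact sign-flip permutation test, and −0.49 without replicate 1. On these lengths AURKB was the higher of the Aurora kinases in 3 of 4 replicates and AURKA in the first. AURKA held 46.6% G and C and AURKB 55.6%. After centring on length and GC content, their deviations in replicate 1 were close, at 0.25 and 0.23. The direction of the mean turned with the length used, to 0.070 with the union of annotated exons and to 0.45 without length correction.

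CCNB1 exceeded CCNB2 in 4 of 4 replicates, with ratios of 1.23, 1.48, 1.53 and 1.15 and a mean log2 difference of 0.42 ± 0.20 (SD, n = 4). NDC80 against NUF2 was at 1.10, 1.00, 1.25 and 1.18. Its mean log2 difference of 0.17 ± 0.13 (SD, n = 4) had the smallest SD of the 5 pairs. In replicate 2 its interval of 0.877 to 1.15 spanned 1. BUB1 was below BUB1B as listed, at 0.629, 0.828, 0.832 and 0.735, with a mean log2 difference of −0.41 ± 0.19 (SD, n = 4), which rests on the uncertain counts of BUB1B. For these 3 pairs the exact sign-flip permutation p was 0.13, the smallest possible, and 0.208 after Benjamini-Hochberg adjustment over the 5 pairs. On the deposited lengths KIF20A against KIF23 varied in direction, at 1.27, 0.674, 1.24 and 1.08, with a mean log2 difference of 0.05 ± 0.42 (SD, n = 4) and an exact permutation p of 0.88. With the union of annotated exons as length its mean difference was 0.67, with an exact permutation p of 0.13, and the differences of CCNB1 and CCNB2 and of BUB1 and BUB1B were 1.03 and −0.87. No pair could pass a threshold of 0.05 with 4 replicates.

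**Figure D5:**
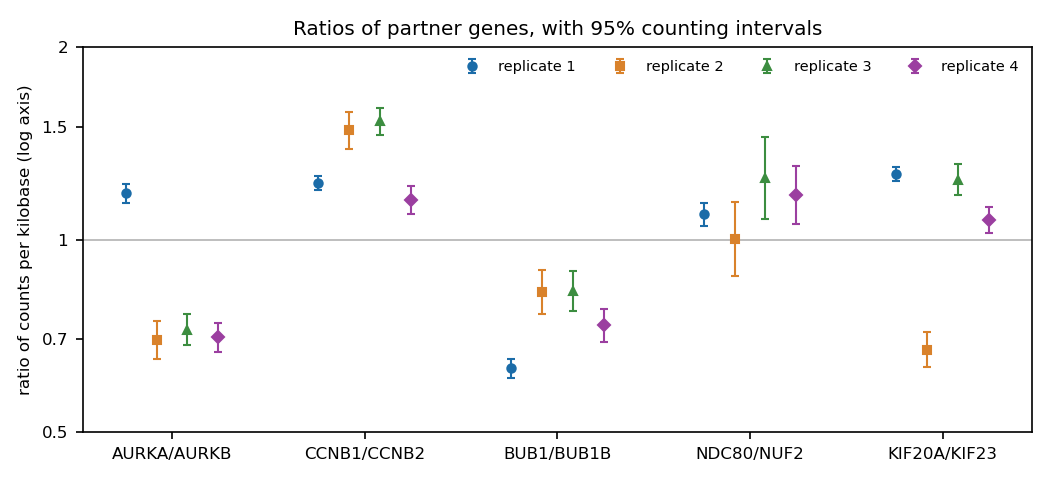
Ratio of counts per kilobase (log axis) of the first to the second gene of 5 pairs in each replicate, with 95% Clopper-Pearson intervals for counting error, and a line at 1. CCNB1 lies above CCNB2 in all 4 replicates at 1.15 to 1.53, and AURKA lies above AURKB only in replicate 1.

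The list of 17 transcription regulators of mitosis genes held activators and repressors that took different places in the replicates. MYBL2, the MYB protein of the MuvB complex, was at 51.0, 307, 361 and 254 TPM, and FOXM1 at 21.4, 132, 134 and 165 TPM. Both were lowest in replicate 1, where 22 of the 36 genes had their highest value, against 40.2% of the 12165 genes. The activator E2F1 was at 14.6, 32.1, 42.3 and 35.6 TPM, and the DREAM subunit E2F4 at 88.2, 177, 140.1 and 148 TPM, with E2F5 at 3.88, 7.94, 7.73 and 6.07 TPM. All 3 were likewise lowest in replicate 1. The pocket proteins, which hold E2F factors in check, had replicate 1 highest and replicate 3 lowest: RBL2 was at 79.9, 18.6, 8.71 and 31.4 TPM, RB1 at 52.6, 31.5, 20.5 and 46.1 TPM, and RBL1 at 25.9, 19.3, 11.3 and 19.5 TPM. Of the MuvB core, LIN9 was at 19.8, 9.28, 11.5 and 8.59 TPM, LIN52 at 14.9, 12.7, 19.7 and 9.55 TPM, and LIN54 at 15.9, 8.52, 5.86 and 9.12 TPM. The NF-Y subunit NFYB was at 27.3, 13.8, 11.8 and 13.9 TPM. These were the regulators with over 2-fold between replicates. The places of most of them in replicate 1 went with GC content as in the members. MYBL2, FOXM1, E2F1 and E2F4, lowest there, held 60.5%, 55.6%, 62.5% and 58.1% G and C, whereas RB1, RBL1, RBL2, LIN9, LIN54 and NFYB, highest there, held 36.02% (NFYB) to 43.2% (RBL2). E2F5, also lowest there, held 46.1%, and LIN52, highest in replicate 3 instead, held 43.6%. The part of base composition in these levels was not tested.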

How the data were processed

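RNA-seq of 4 replicates of untreated HaCaT cells was analysed. The authors deposited raw counts per gene, with length and position, for all 4 replicates, RPKM for replicates 1 and 2, and TPM for replicates 3 and 4. The submitters' processing notes name HISAT2, TopHat2, Bowtie2, HISAT and hg19, without roles. The deposited RPKM and TPM were not used for comparisons because the unit differs between replicates, and TPM over protein-coding genes was computed from the counts and lengths instead (Python 3.11.15, pandas 2.3.3). Levels were compared as log2(TPM + 1), and the 12165 genes with a mean TPM of 1 or more served as background. Exon GC content came from GENCODE release 29, with genes matched by symbol. Scaling factors of edgeR 4.0.16 and DESeq2 1.42.0 were alternatives, as were other lengths, pseudocounts, filters and the omission of each replicate. For differences within replicates an exact permutation test flipped their signs, two-sided (NumPy 2.4.6). Total counts of 17056035 to 73082279 set the precision. The members and lists were chosen with earlier results of these data known. Named genes were all 36 members, the highest and lowest gene of each other list, and regulators over 2-fold apart between replicates. One result of the immune cell list is not reported here.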

Additional observations from a re-analysis of the deposited data

Results flagged for a closer look

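Of 60 sets of 4 replicate values, 4 had a value far from the other three, and about 3 are expected to do so by chance at 1 in 20. All 4 were in replicate 1. CDK1 was at 165 TPM there against 63.6 to 74.8 TPM in the others, and NFYB at 27.3 TPM against 11.8 to 13.9 TPM. The median of the 7 differentiation genes was 96.3 TPM against 3.59 to 14.3 TPM. AURKA minus AURKB on the log2 scale came to 0.24 in replicate 1, with −0.52, −0.46 and −0.50 in replicates 2 to 4. After centring on length and GC content, AURKA deviated by 0.25, −0.32, −0.18 and 0.24 in replicates 1 to 4. AURKB then deviated by 0.23, −0.26, −0.22 and 0.25. The deviation of CDK1 in replicate 1 was 0.92 before centring and 0.34 after it, with 0.20 in replicate 3. What sets replicate 1 apart in these values was not tested.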

How the results depend on the processing

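Of 270 values recomputed under the alternatives, 238 kept their direction and side of the threshold where tested, their size within the replicate SD where not, or a count within 1.5 times. Part of this total was fixed in advance. The counts of highest and lowest genes cannot change with the pseudocount or the filter on low values, and no test could change its side of 0.05. TPM over all rows moved the summed level to 3303 TPM, the genes highest in replicate 1 to 0, those lowest in replicates 1, 2 and 3 to 26, 1 and 9 and those highest in replicate 4 to 30. Without length correction the summed level was 6302 when scaled to a total of 1000000, the AURKA to AURKB difference reversed to 0.45 and KIF20A to KIF23 to −0.054, and CCNB1 to CCNB2 was 0.90 and NDC80 to NUF2 0.29. With the union of annotated exons as length they were 5622 TPM and 0.070 for AURKA to AURKB, 0.67 for KIF20A to KIF23, 1.03 for CCNB1 to CCNB2 and −0.87 for BUB1 to BUB1B, so the size of a pair difference depends on the length used. With TMM, DESeq2 or upper quartile scaling 8 genes, not 4, were highest in replicate 3, while 16 were lowest in replicate 2 and 12 in replicate 3. Both lowest counts were the same without length correction and with the union of annotated exons as length. With genes of 5000 bases or less, chosen after seeing the data, the members' median in replicate 3 against all such genes was −0.032 in place of −0.12, and 10 of 29 members were lowest there. After centring on length and GC content, also added later, 17 genes were highest in replicate 4 and 16, not 22, in replicate 1. The lowest value was then in replicate 2 for 19 genes and in replicate 3 for 11. Leaving out 1 replicate at a time gave −0.26 to 0.11 for the members' replicate 3 median against all genes (positive without replicate 1), 10 to 28 genes highest in replicate 4 (28 without replicate 1), 26 genes lowest in replicate 2 without replicate 3, and −0.051 to 0.25 for KIF20A to KIF23 (negative without replicate 1 or 3). In these omissions the mean difference from the replication genes was 0.29 to 0.71, and that of AURKA and AURKB −0.49 to −0.24. With all replicates the difference from the replication genes was 0.94 without length correction and 0.73 with the union of annotated exons as length. The cause of these changes was not tested. With 4 replicates no exact test can reach 0.05, and the rarest member counts, 192 to 366 in replicates 2 to 4, limit CDC25C and CENPE.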
